A study of Mus musculus with 6 samples.

Results

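The genes of axon guidance, secreted and membrane-bound ligands and the receptors that read them, were examined in cortical bone tubes cultured without or with parathyroid hormone (PTH). Members were taken by gene symbol alone, as semaphorins of classes 3 to 7, plexins, neuropilins, ephrins, Eph receptors, Slit1 to Slit3, Robo1 to Robo4, netrins and Unc5 genes, which gave 66 genes of the 31508 symbols on the array. These 66 genes had 147 of the 45281 probes. The tubes were the shafts of femur and tibia from C57BL6 mice, 3 months old by the sample labels. They were flushed to remove marrow and digested repeatedly with collagenase and trypsin to remove surface cells. After a night in culture they were left untreated (control) or given PTH (1–34) at 250 nM for 24 hours. Each group had 3 Illumina mouse bead arrays, each of RNA from about 10 bones of 4–5 mice, so that an array is a pool of animals. Nothing in the labels says that the preparations of a group came from separate experiments, so the p-values measure the spread between these preparations.

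Guidance proteins steer nerve fibres and blood vessels, and the same families carry signals between bone cells. Semaphorins bind plexins, the class 3 members through neuropilins as co-receptors, and Sema3a and Sema4d are known as regulators of bone resorption and of bone formation respectively. Ephrins and Eph receptors signal in both directions across a cell contact, as ephrinB2 and EphB4 do between osteoclasts and osteoblasts. Slits act through Robo receptors and netrins through Dcc and the Unc5 receptors.

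Few of these genes passed the test for a change with PTH. *Epha2*, a receptor for the A-type ephrins, fell 1.83-fold and was the only 1 of the 32 members that could be tested to pass the threshold by its brightest probe. In such bulk tissue, fewer cells that express a gene and less RNA per cell cannot be told apart. No member passed it upwards. The largest other differences were a lower signal of the semaphorin *Sema5a* and of the co-receptor *Nrp2*, and a higher signal of the semaphorin *Sema4f* and of *Efnb2*, none of which passed. For *Nrp2* a brighter probe, listed under an older name and not used here, differed by 0.22 with overlapping groups. A gene was tested where a probe was above background (detection p under 0.05) on at least 3 of the 6 arrays. A call needed a fold change of 1.5 or more and an adjusted p under 0.05 (limma, with the Benjamini-Hochberg method over the probes tested). Over the 11979 genes tested, 0.685% were called higher and 1.04% lower with PTH, 1.73% in all, so 0 and 1 of 32 guidance genes were near the share of the whole array. An unadjusted p under 0.05 was found for 6 of the 32, where 14.9% of all genes had one. The PTH arrays lay wholly above the control arrays for 2 members, *Sema4f* and *Slit2*, against 11.1% of all genes. They lay wholly below for 6 members, *Sema4a*, *Sema5a*, *Nrp2*, *Efnb1*, *Epha2* and *Epha3*, against 10.8% of all genes. The groups were thus apart for 8 members, where 21.9% of all genes had groups apart. The log2 difference, PTH minus control, was positive for 18 members and negative for 14, with a median of 0.03 beside 0.01 over all genes tested. The median size of the difference without its sign was 0.19 for members and 0.16 for all genes. Precision was limited by the 3 arrays of each group, for which the smallest p of an exact permutation test on 1 gene is 0.1.

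**Figure D1:**
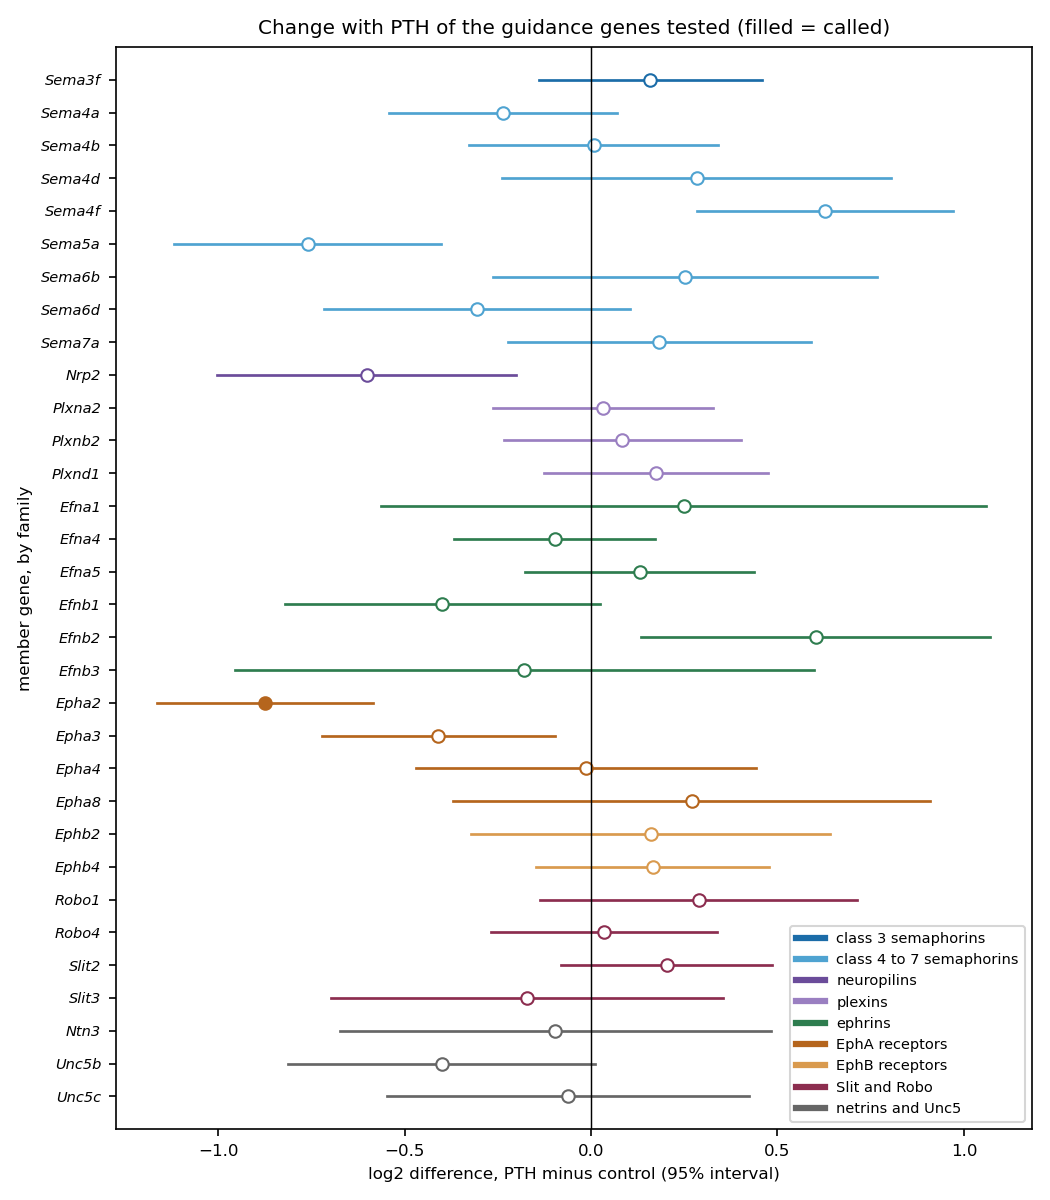
Log2 difference between PTH and control (x axis, PTH minus control) of each of the 32 guidance genes tested (y axis, grouped and coloured by family), by the brightest probe. Points are limma estimates over 3 arrays a group, lines are 95% intervals, and the filled point is the 1 gene called; *Epha2* lies farthest to the left at -0.87 and *Sema4f* farthest to the right at 0.63.

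The stretches just upstream of the 4 members with the lowest p are shown because PTH acts on bone cells largely through cyclic AMP, whose response element (CRE, TGACGTCA, the same on both strands) is a motif that can be looked for. They are the 250 bases before the start of each gene in RefSeq, build GRCm38.p6, 5′ to 3′ on the gene's strand, at chr4:141300971-141301220 for *Epha2* (plus strand), chr15:32244563-32244812 for *Sema5a* (plus), chr6:82939770-82940019 for *Sema4f* (minus) and chr1:62703067-62703316 for *Nrp2* (plus). Capitals mark the full CRE or its 5-base part TGACG, read on either strand as TGACG or CGTCA.
Epha2: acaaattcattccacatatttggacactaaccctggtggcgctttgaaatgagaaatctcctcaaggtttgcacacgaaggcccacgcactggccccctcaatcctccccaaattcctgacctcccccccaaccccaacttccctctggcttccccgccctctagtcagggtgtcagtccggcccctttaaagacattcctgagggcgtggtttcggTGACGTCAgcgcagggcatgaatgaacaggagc
Sema5a: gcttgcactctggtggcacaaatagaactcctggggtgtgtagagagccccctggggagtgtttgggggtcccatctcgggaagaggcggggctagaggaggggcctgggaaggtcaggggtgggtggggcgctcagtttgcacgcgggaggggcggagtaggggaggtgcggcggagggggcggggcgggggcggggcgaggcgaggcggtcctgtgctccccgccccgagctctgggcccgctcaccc
Sema4f: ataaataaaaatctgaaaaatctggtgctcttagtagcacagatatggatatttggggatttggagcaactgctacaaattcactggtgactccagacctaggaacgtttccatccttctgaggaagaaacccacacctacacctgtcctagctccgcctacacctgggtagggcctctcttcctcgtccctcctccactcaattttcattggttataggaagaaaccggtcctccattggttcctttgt
Nrp2: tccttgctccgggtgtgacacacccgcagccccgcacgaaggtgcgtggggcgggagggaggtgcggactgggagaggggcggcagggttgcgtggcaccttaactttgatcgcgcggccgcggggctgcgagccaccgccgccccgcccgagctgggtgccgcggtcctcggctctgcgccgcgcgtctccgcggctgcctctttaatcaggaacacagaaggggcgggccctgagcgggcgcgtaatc
The *Epha2* window holds 1 full CRE, whose first base lies 33 bases before the start, and the other 3 windows hold neither the full element nor its part. Their GC content is 55.6% for *Epha2*, 72.0% for *Sema5a*, 46.0% for *Sema4f* and 72.4% for *Nrp2*. Among windows of this length the full element stands in 1.769% of 27025 genes, and in 1 of the 57 members with a window in the table. The 5-base part, which the full element contains, stands in 19.785% of all genes and in 7 of the 57 members, *Efnb1*, *Efnb2*, *Epha2*, *Epha4*, *Ephb3*, *Sema3d* and *Unc5c*. A match is a description of these letters and not evidence of a bound site.

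Many guidance genes were near or under the background of the array. For 26 of the 66 members a probe was above background on each of the 6 arrays, and a further 6 could be tested, while 15 were above background on some array without being testable and 19 on no array. A control array had 44 to 50 of the 147 member probes above background and a PTH array 40 to 51. The 1 neuropilin could be tested, as could 6 of the 8 ephrins and 8 of the 13 semaphorins of classes 4 to 7. Of the secreted class 3 semaphorins only *Sema3f* among 7 could be tested. The 19 members above background on no array were *Sema3e*, *Sema3g*, *Sema4c*, *Sema6c*, *Plxna1*, *Plxna3*, *Plxna4*, *Plxnb3*, *Plxnc1*, *Efna2*, *Epha5*, *Ephb1*, *Ephb3*, *Slit1*, *Robo3*, *Ntn1*, *Unc5a*, *Unc5d* and *Unc5cl*. Such counts leave out probes under older names, by 1 of which *Plxna4* was above background on 1 PTH array. Of the 15 seen on some array, *Sema4g*, *Sema5b*, *Sema6a*, *Plxnb1*, *Efna3*, *Epha1*, *Epha6*, *Epha7*, *Ephb6* and *Ntn4* were above background on 1 array at most by any probe, and *Sema3b* on 1 of each group. *Sema3a*, the class 3 member best known in bone, was above on 1 PTH array and no control array. The same held for *Sema3c*, whose brightest probe read 4.58, 4.58 and 4.53 in control tubes and 4.88, 4.55 and 5.11 with PTH (normalized log2 signal, the scale of all values given by array, on which a difference of 1 is a 2-fold change), values that overlap and of which 1 stands above background. *Sema3d* was above background on 2 control arrays and no PTH array (5.17, 5.62 and 4.83 in control, 4.39, 4.36 and 4.79 with PTH). By 1 of its 3 probes *Robo2* was above on 2 PTH arrays and no control array. That probe read 4.76, 5.02 and 4.72 in control and 5.71, 5.93 and 4.90 with PTH, so the groups overlapped. Another *Robo2* probe was above on 1 control array. Set against the detection limit, *Sema3d* was 1.11-fold lower with PTH and *Robo2* 1.38-fold higher. These values compare the mean of the brighter group over all 3 of its arrays with the lowest signal that counted as above background on the arrays of the other, or the probe's own signal where that was higher. Each such mean includes an array under background, so they are not strict bounds, and they carry no test.

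**Figure D2:**
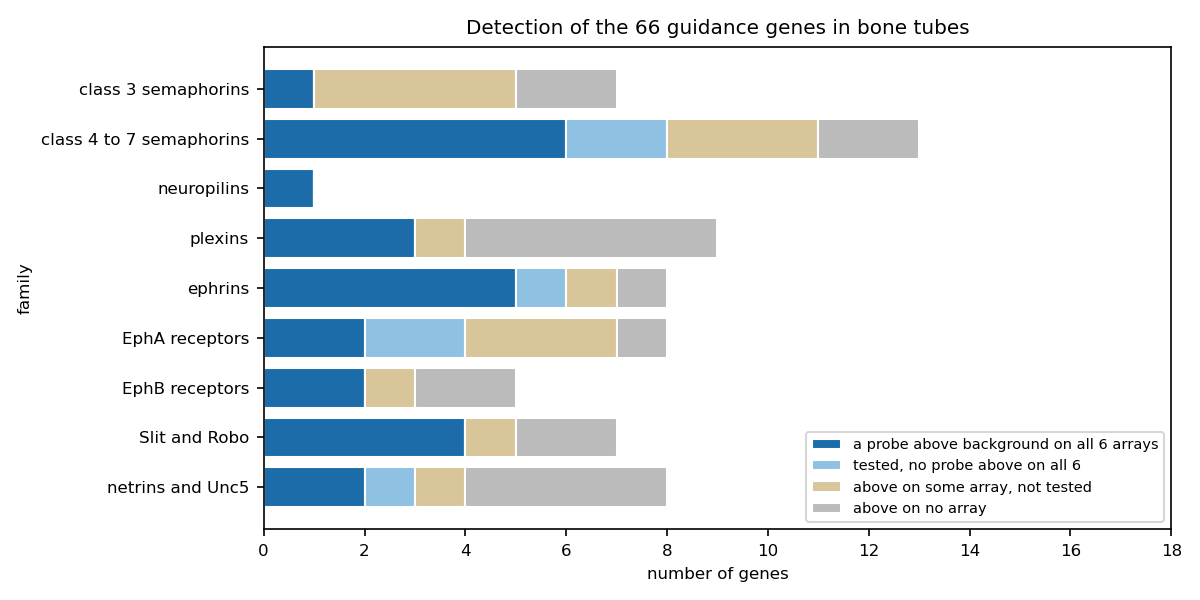
Number of guidance genes (x axis) in each family (y axis) by how far they were detected. Colours separate genes detected by a probe on each of the 6 arrays (26 genes), other genes tested (6), genes above background on some array but not tested (15) and genes above on no array (19).

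Among the ligands, *Sema5a*, a transmembrane semaphorin with thrombospondin repeats, had 3 probes tested. Its brightest probe read 10.11, 9.98 and 9.76 in control tubes and 9.13, 9.41 and 9.03 with PTH. Every PTH array was under every control array, but the difference of -0.76 (SE 0.15, limma adjusted p = 0.0631) did not pass the threshold. The next probe read 9.11, 9.34 and 9.18 in control and 8.39, 8.22 and 8.63 with PTH, and fell by 0.80 (SE 0.15, 1.74-fold, limma adjusted p = 0.0446), just past the threshold. The faintest probe, above background on 2 arrays of each group, differed by 0.27 (adjusted p = 0.590, limma). So 2 of the 3 probes of *Sema5a* lay lower with PTH without overlap and the remaining 1 did not. The brightest probe passed under quantile normalization without background correction, with an offset of 50, and when only probes with a detection p under 0.01 on all 6 arrays were tested (adjusted p = 0.00062, 0.00827 and 0.0213, limma). The next probe lost its call whichever array was left out (adjusted p from 0.0600 to 0.169). With all arrays kept it also lost the call under median scaling, without the detection filter, with the replicate number as a block and by the methods' t-test (adjusted p = 0.526, 0.0717, 0.114 and 0.137).

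*Sema4f*, a transmembrane class 4 semaphorin expressed in the nervous system, was the ligand with the largest difference upwards. Its brightest probe read 6.89, 6.74 and 6.83 in control tubes and 7.70, 7.37 and 7.27 with PTH, a difference of 0.63 (SE 0.15, 95% interval 0.28 to 0.97, 1.54-fold) with a limma adjusted p of 0.0977. Its second tested probe, above background on 2 control and 3 PTH arrays, read 4.99, 5.42 and 5.95 in control and 6.25, 6.15 and 6.42 with PTH. The difference of 0.82 (adjusted p = 0.159, limma) was thus in part against a control value under background. On both probes the PTH arrays were all higher than the control arrays, and neither passed the threshold. The call was made when the test was limited to probes with a detection p of under 0.01 throughout (adjusted p = 0.0399, limma). The limma adjusted p was 0.0286 with quantile normalization alone and 0.0441 with an offset of 50. The differences were then 0.38 and 0.51, short of the fold change needed.

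The other semaphorins differed by less. *Sema4d*, which osteoclasts make and which restrains osteoblasts through plexin B1, read 5.43, 5.11 and 5.08 in control and 5.49, 5.05 and 5.92 with PTH (difference 0.28, SE 0.23, limma adjusted p = 0.632). Its groups overlapped and 5 of the 6 arrays were above background. *Sema4a*, an immune cell semaphorin, read 8.40, 8.55 and 8.21 in control and 8.16, 8.17 and 8.12 with PTH, wholly lower but by only 0.24 (adjusted p = 0.471, limma). *Sema7a*, which is tethered to the membrane by a lipid anchor and also binds integrins, differed by 0.18 (SE 0.18, 95% interval -0.22 to 0.59). *Sema6d*, a plexin A1 ligand, differed by -0.31 (SE 0.18), *Sema6b* by 0.25 (SE 0.22) and *Sema4b* by 0.01 (SE 0.14), all with overlapping groups. *Sema3f*, the secreted ligand of neuropilin-2, gave 0.16 (SE 0.13) and 0.04 (SE 0.15) on its 2 tested probes.

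**Figure D3:**
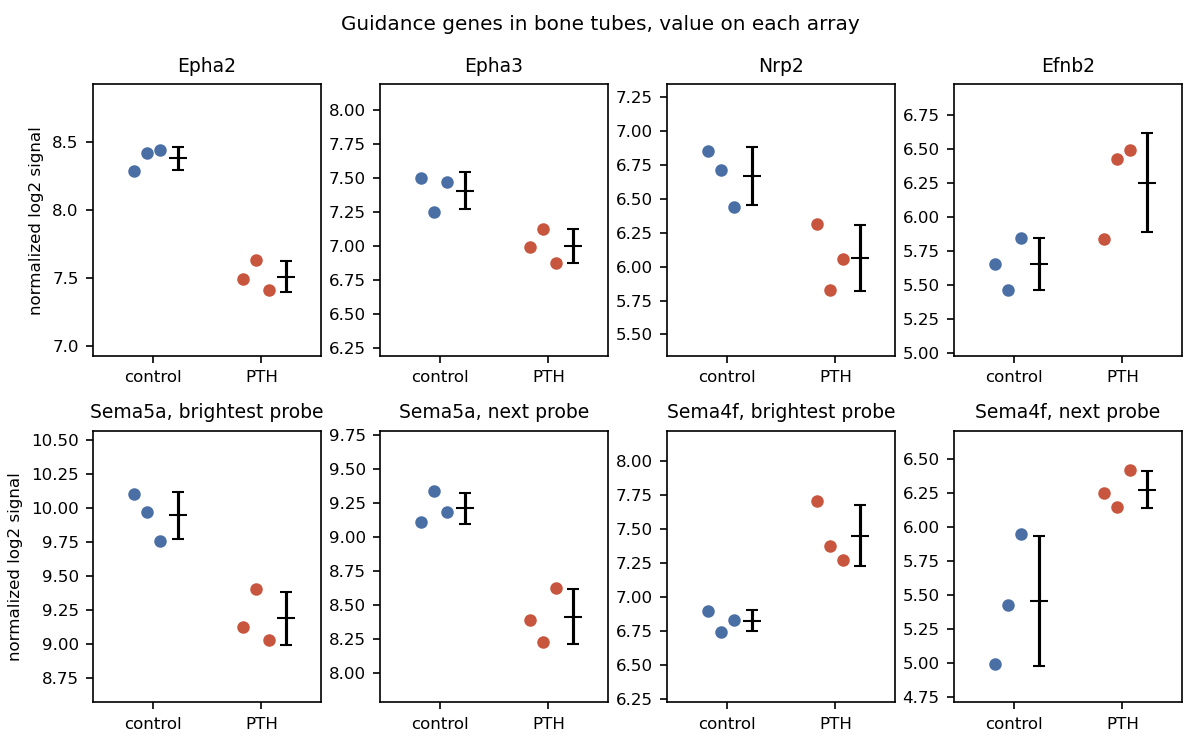
Normalized log2 signal (y axis) on each of the 3 control arrays and 3 PTH arrays (x axis) for *Epha2*, *Epha3*, *Nrp2*, *Efnb2* and the 2 brightest probes each of *Sema5a* and *Sema4f*. Points are single arrays and bars are group means with the SD (n = 3); each panel has its own y range of equal length, and the groups are apart in every panel except that of *Efnb2*, where control and PTH meet at 5.84.

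On the receptor side of the semaphorins, *Nrp2*, the co-receptor for class 3 semaphorins and for some vascular growth factors, read 6.85, 6.71 and 6.44 in control tubes and 6.32, 5.83 and 6.05 with PTH. All PTH arrays were under all control arrays, with a difference of -0.60 (SE 0.17, 1.52-fold) that did not pass (limma adjusted p = 0.163). Its fainter tested probe, above background on 1 control and 2 PTH arrays, differed by 0.13 (adjusted p = 0.846, limma). A probe under an older name of the gene was above background on every array. It was brighter than both, with means of 7.89 in control and 8.11 with PTH. Its groups overlapped and it differed by 0.22 (adjusted p = 0.669, limma). The lower signal of *Nrp2* was thus not seen on this brighter probe, and the probes did not move together. *Nrp1* was not on the array under its current symbol. The array has 4 probes under the symbol Nrp, an older name of *Nrp1* that RefSeq also lists for another gene, and these were not counted as members. Of the 3 that could be tested, the differences were 0.14, 0.40 and 0.12 (adjusted p = 0.650, 0.267 and 0.777), none called.

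Of 9 plexins, the signalling receptors for semaphorins, 3 could be tested and none was called. *Plxnd1*, the receptor of endothelial cells for Sema3e, read 9.56, 9.27 and 9.46 in control tubes and 9.67, 9.54 and 9.61 with PTH (difference 0.17, SE 0.13, 95% interval -0.12 to 0.47, limma adjusted p = 0.607), and its second probe differed by 0.19 (SE 0.14). *Plxnb2*, a receptor of class 4 semaphorins, differed by 0.08 (SE 0.14, 95% interval -0.23 to 0.40) and *Plxna2* by 0.03 (SE 0.13, 95% interval -0.26 to 0.33). *Plxnb1*, the receptor for Sema4d, was above background on 1 PTH array alone, and *Plxnc1*, the receptor for Sema7a, on none.

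Of the ephrins, *Efnb2*, a ligand of EphB4, had the largest difference. It read 5.65, 5.46 and 5.84 in control tubes and 5.84, 6.43 and 6.49 with PTH, a difference of 0.60 (SE 0.20, 95% interval 0.13 to 1.07, limma adjusted p = 0.221). PTH array 1 was level with the highest control array, and the other 2 PTH arrays stood above all of the controls. *Efnb1*, which guides the shaping of skull and limb bones, went the other way, with 8.64, 8.88 and 9.21 in control and 8.28, 8.62 and 8.63 with PTH (difference -0.40, SE 0.18, adjusted p = 0.371, limma). The highest PTH array lay just under the lowest control array. The A-type ephrins, which are held by a lipid anchor and include the ligands of EphA2, differed by 0.25 (SE 0.35) for *Efna1*, by 0.13 (SE 0.13) for *Efna5* and by -0.10 (SE 0.12) for *Efna4*. Of the A-type ephrins tested *Efna1* varied the most within a group, from 5.92 to 7.18 in control and from 6.46 to 7.40 with PTH. *Efna2* was above background on no array, and *Efnb3*, above background on 3 arrays, differed by -0.18 (SE 0.34).

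*Epha2*, a receptor for A-type ephrins that takes part in signalling between osteoclasts and osteoblasts, was the member that changed most. It has 1 probe, which read 8.29, 8.42 and 8.44 in control tubes and 7.49, 7.63 and 7.41 with PTH. The gap between the groups was wider than the range within either. Mean signal fell from 8.38 ± 0.085 (SD, n = 3) to 7.51 ± 0.111 (SD, n = 3), a difference of -0.87 (SE 0.12, 95% interval -1.16 to -0.59, limma adjusted p = 0.0191). The call rested on all 6 arrays, since with any 1 left out the difference lay between -0.93 and -0.82 with an adjusted p from 0.0607 to 0.0905. It was also lost when arrays were scaled to a common median (difference -0.75, adjusted p = 0.347), with the replicate number as a block (adjusted p = 0.0681) and by the methods' t-test (adjusted p = 0.0540).

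**Figure D4:**
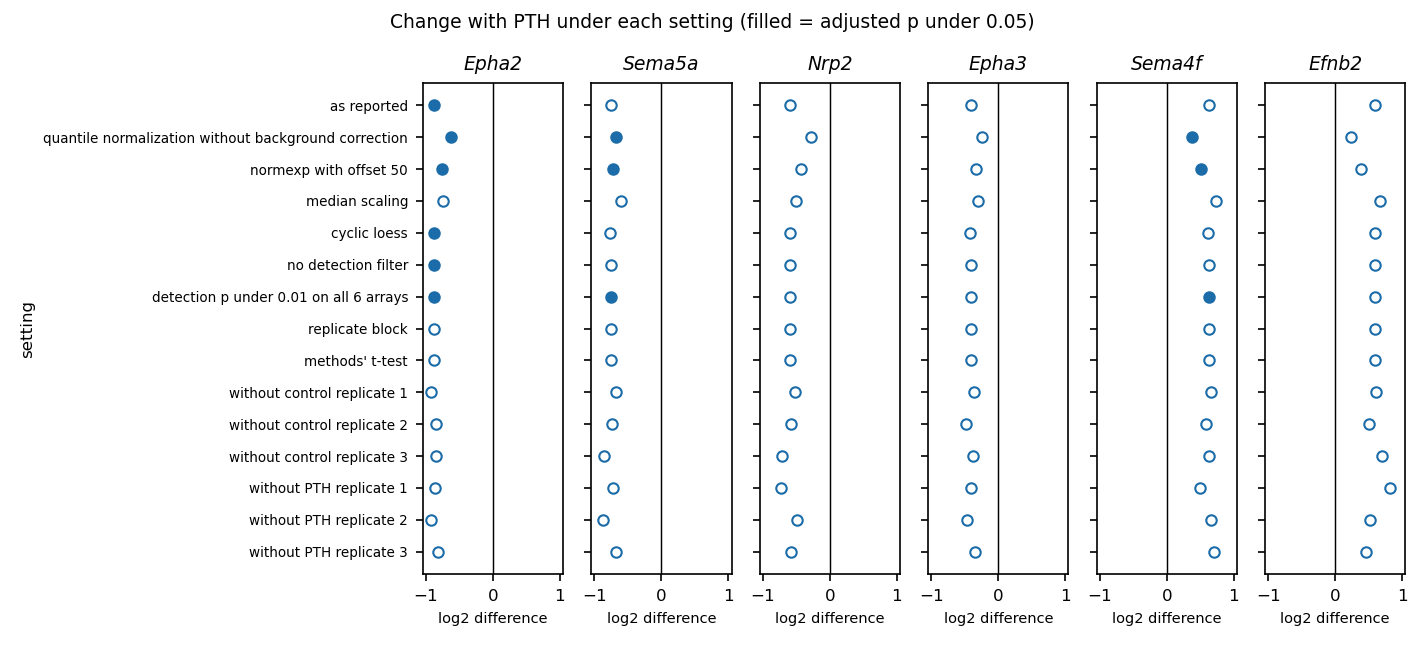
Log2 difference between PTH and control (x axis) under each way of processing the signals or with 1 array left out (y axis) for 6 guidance genes. Filled points had an adjusted p under 0.05 in that setting; *Epha2* stayed between -0.93 and -0.63 throughout, and none of the 6 genes had a filled point once an array was left out.

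*Epha3*, another A-type receptor, read 7.50, 7.25 and 7.47 in control tubes and 6.99, 7.13 and 6.88 with PTH, wholly lower (difference -0.41, SE 0.14, 95% interval -0.72 to -0.10) but short of the threshold (limma adjusted p = 0.213). Its second probe differed by -0.62 (adjusted p = 0.250, limma) and the remaining probe, near background, by -0.01. *Epha4* differed by -0.01 (SE 0.20) and *Epha8*, above background on 3 arrays, by 0.27 (SE 0.28). *Ephb4*, the receptor of ephrinB2 on osteoblasts, read 8.25, 8.20 and 8.47 in control and 8.35, 8.46 and 8.60 with PTH by its brightest probe (difference 0.17, SE 0.14, limma adjusted p = 0.644). A second probe, also above background on every array, was wholly higher with PTH by 0.30 (adjusted p = 0.360, limma). The faintest, above background on 3 control arrays but only 1 PTH array, differed by -0.49. The 2 probes detected throughout thus both had a positive difference, and none of the probes passed. *Ephb2* differed by 0.16 (SE 0.21) with overlapping groups, and the other 3 EphB receptors could not be tested.

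*Slit2*, a secreted ligand of the Robo receptors, read 8.70, 8.65 and 8.73 in control tubes and 8.82, 8.84 and 9.03 with PTH, wholly higher by 0.20 (SE 0.12, limma adjusted p = 0.510). A second probe was also wholly higher, at 5.65, 5.84 and 5.60 against 6.48, 6.09 and 6.01 (difference 0.50, SE 0.16, adjusted p = 0.207, limma), and 2 near background differed by -0.19 and 0.28. None of its 4 tested probes passed. *Slit3*, which bone cells also secrete, differed by -0.17 (SE 0.23). *Robo1*, a Slit receptor of nerve and mesenchymal cells, read 7.07, 6.73 and 6.91 in control and 7.53, 7.14 and 6.91 with PTH (difference 0.29, SE 0.18, adjusted p = 0.534, limma), with PTH array 3 inside the control range. *Robo4*, the endothelial member, differed by 0.03 (SE 0.13, 95% interval -0.27 to 0.34).

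Of the 3 netrins among the members, the secreted ligands of the Unc5 receptors, *Ntn1* was above background on no array, *Ntn4* on 1 array and *Ntn3* on 3 (difference -0.10, SE 0.25). *Ntn5*, listed under an older name and so not a member, was above background on 2 control arrays and no PTH array, and was not tested. *Unc5b*, a netrin receptor of vessels, read 8.13, 8.34 and 8.57 in control tubes and 7.72, 7.90 and 8.22 with PTH, a difference of -0.40 (SE 0.18, 95% interval -0.81 to 0.01, limma adjusted p = 0.356). PTH array 3 lay above control array 1, so the groups overlapped. *Unc5c* gave -0.06 (SE 0.21) and 0.03 (SE 0.21) on its 2 probes. *Unc5cl*, which the symbol rule takes in although it is not known as a netrin receptor, was above background on no array.

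Taken by role, none of the 18 ligands tested was called by its brightest probe (range -0.76 to 0.63), and of the 14 receptors tested 1 was lower and none higher (range -0.87 to 0.29). The 95% intervals of *Efna1*, *Efna4* and *Efna5*, possible ligands of the receptor that fell, all took in 0. Of the 11 members with more than 1 probe tested, all probes had the same sign for 5 and both signs for 6, so a gene's value can depend on the probe that stands for it. For *Efna4*, *Ephb4*, *Nrp2*, *Sema5a* and *Slit2* the tested probe of opposite sign was not above background on every array. The probes of *Unc5c*, the remaining gene, differed by only -0.06 and 0.03.

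Downstream of these receptors, 72 genes listed as their co-receptors and transducers, such as kinases, adaptors and actin-binding proteins, were read in the same fit. Of these, 51 could be tested, 1 was called higher with PTH and 1 lower. The gene called higher, *Srgap3*, entered the test through its PTH arrays alone, so this count is not set against the share over all genes. *Srgap3*, a GTPase-activating protein that binds Robo receptors, read 4.76, 4.77 and 4.82 in control tubes, below background on all 3, and 5.51, 5.83 and 5.50 with PTH. Against the detection limit of the control arrays it was at least 1.48-fold higher. The adjusted p of 0.0297 (limma) compares the PTH values with control values that were all at background, and is no test of that bound. *Farp2*, an exchange factor of the semaphorin and plexin pathway, read 8.72, 8.94 and 8.86 in control and 8.12, 8.21 and 8.10 with PTH, and fell 1.62-fold (difference -0.70, SE 0.12, limma adjusted p = 0.0373). *Pak3*, a kinase activated by Rac and Cdc42, had a larger difference of -0.90 (SE 0.18) that did not pass (adjusted p = 0.0588, limma). *Rac1* differed by -0.43 (SE 0.13, adjusted p = 0.176, limma) and *Mical2*, an oxidase that disassembles actin, by -0.32 (SE 0.12, adjusted p = 0.259), each wholly lower with PTH. The difference was negative for 35 of the 51 and positive for 16, with a median of -0.11 beside 0.01 over all genes. These counts became 26 and 25 with arrays scaled to a common median, which moved the median of all genes to 0.12, and likewise 26 and 25 without PTH array 1. Both transducer calls were lost with any 1 array left out.

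Markers of several cell types differed between the groups as well. Of 12 markers of osteoblasts and osteocytes, 10 could be tested, 4 were called lower (*Mepe*, *Ibsp*, *Sp7* and *Pth1r*) and none higher. The difference was negative for 9 and positive for 1, *Pdpn*, which lay wholly higher with PTH without a call (0.70, limma adjusted p = 0.0560). *Dmp1*, *Phex* and *Col1a1* lay wholly lower without a call (-1.21, -0.88 and -0.54). The summed signal of the markers tested, on the log2 scale, was 15.03 to 15.12 in control and 14.34 to 14.46 with PTH. The osteocyte genes *Dmp1*, *Mepe* and *Phex* were above background on all 6 arrays and *Sost* on 4, while *Runx2* and *Fgf23* were above on none. Of 8 neutrophil markers, 5 were called lower, with a summed signal of 15.73 to 15.75 in control and 15.09 to 15.27 with PTH. Of 9 osteoclast markers, 3 of the 5 tested were called higher, with sums of 13.54 to 13.71 and 13.98 to 14.33, and *Calcr*, *Ocstamp* and *Atp6v0d2* were above background on no array. The part of these shifts in the values of *Epha2*, *Sema5a* and *Sema4f* was not tested. None of the 12 endothelial markers was called and their sums were 11.74 to 11.81 in control and 11.74 to 11.79 with PTH. The sums mostly follow the brightest of them, *Emcn*, *Esam* and *Plvap*. *Vwf* lay wholly lower with PTH (-0.45, limma adjusted p = 0.177), and the difference was negative for 7 and positive for 5. None of the 7 macrophage markers tested was called, with sums of 13.46 to 13.79 and 13.49 to 13.80, which mostly follow *Lyz2*, the brightest of them. *Mrc1*, *Fcgr1* and *Adgre1* lay wholly lower with PTH (-0.80, -0.43 and -0.27) and *Cd14* wholly higher (0.39). Of 3 B lymphocyte markers tested 1 was called higher, with sums of 6.47 to 7.12 and 7.04 to 7.61. Of the Schwann cell and nerve markers, *Sox10*, *S100b* and *Prx* were above background on no array, 3 could be tested and none was called, with sums of 7.29 to 7.51 in control and 7.29 to 7.50 with PTH. The 1 skeletal muscle marker of 8 that could be tested, *Tnni2*, read 5.52 to 5.72 in control and 4.87 to 5.20 with PTH, and was not called.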

How the data were processed

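RNA of cortical bone tubes, 3 control and 3 PTH preparations, had been hybridized to Illumina mouse bead arrays with 45281 probes. The authors deposited the linear signal intensity of each probe, neither normalized nor background subtracted, from GenomeStudio (version not given in the sources used here), and beside it a detection p-value against the negative controls. Probe sequences were not used.

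Here the intensities were background corrected by normexp through the detection p-values with an offset of 16, quantile normalized and taken to log2 with neqc (limma 3.58.1, R 4.3.3). A small offset spreads dim probes more than a large one. Probes with a detection p under 0.05 on at least 3 of 6 arrays, 16214 in all, were tested with limma's lmFit and eBayes, and p-values were adjusted over them by the Benjamini-Hochberg method. Each gene was represented by its brightest tested probe among those under its symbol, leaving out probes under older names. An array had 34.2% to 38.4% of its probes above background, and median signal was 111 to 129. No 2 arrays had identical signals. Symbols are those of the table, and older names and promoter windows are from RefSeq, GRCm38.p6. The procedure was tested on simulated data.

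Members, lists and tests were chosen with earlier results of these data known. Named genes are every member called, the 24 tested members with the lowest p, *Sema4f*, *Sema3c*, the member with the highest signal in each family, and of the transducers those called and the 5 with the lowest p. Other genes are named to account for the rest of the list. The alternatives changed the normalization (quantile alone, median scaling, cyclic loess), the offset (50), the filter (none, or a detection p under 0.01 on every array), the test (the methods' t-test, a replicate block), the fold change minimum (none) and the rule for a gene's probe, or left out 1 array.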

Additional observations from a re-analysis of the deposited data

How the results depend on the processing

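The number of guidance genes called lower, 1 as reported, was 2 (*Epha2* and *Sema5a*) with quantile normalization alone, with an offset of 50, with a detection p under 0.01 on every array and when any tested probe could stand for its gene. The count was 0 with median scaling, with the replicate number as a block and by the methods' t-test after Benjamini-Hochberg adjustment (6 members at an unadjusted p under 0.05). The number called higher, 0 as reported, was 1 (*Sema4f*) with a detection p under 0.01 on every array. The 2 transducers called became 0 with quantile normalization alone, median scaling, the block and the methods' t-test, 1 with an offset of 50 and with the stricter detection p, and 3 with the mean of a gene's tested probes. With any 1 array left out, 0 to 0 guidance genes were called lower and 0 to 0 transducers were called, while 48 to 78 genes of the whole array were, against 207 with all arrays. The median difference of members, 0.03, was 0.18 with median scaling, which moved the median of all genes to 0.12, and 0.014 to 0.064 with an array left out, the highest of these without PTH replicate 2. *Efna1*, which ranged from -0.10 to 0.53 with an array left out, changed sign without control replicate 1 (-0.10) and without PTH replicate 3 (-0.022), and *Robo4*, which ranged from -0.060 to 0.10, without control replicate 3. The cause of these changes was not tested.

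The labels do not say that equal replicate numbers pair the arrays, and the main fit did not pair them. Over all probes tested, same-numbered arrays deviated together with r = 0.067, 0.064 and 0.273. Unlike-numbered arrays gave 0.070 and 0.073 between replicates 1 and 2, and -0.142 to -0.134 where replicate 3 was involved. Probes above background also followed the replicate number (15758, 16451 and 17369 in control, 15504, 16352 and 17374 with PTH). Whether same-numbered arrays share an effect was not tested. With the replicate block 0 members and 0 transducers were called, and 44 genes of the whole array instead of 207. With all arrays kept, 192 of 203 values had the same direction and the same side of the threshold as reported, 4 passed it in addition, 7 no longer passed and 0 changed sign. With an array left out these numbers were 141, 0, 12 and 3 of 156. Signal over background limits the rest, since 34 of 66 members could not be tested.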
